A study of Mus musculus with 9 samples.

Results

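The regions described here are transcript clusters of a mouse whole-transcript array that carry no gene symbol in the deposited annotation and that gave a strong signal in these cells. A transcript cluster is the array's unit for one transcribed locus, measured by a set of probes that are summarised into 1 log2 signal per array. Members were chosen as clusters with an empty symbol and a mean log2 signal of at least 8 over the 3 arrays of at least 1 group, with control probe sets left out. They were thus selected on the measured group means. This gave 1519 members, which are 5.76% of the 26355 clusters without a symbol and part of 65956 clusters in all. Among the 39601 clusters with a symbol, 10227 (25.8%) reached the same level. Because the group levels chose the members, those levels are given as a description. Many members reached 8 only in the group or groups where they were high. For these, the direction of the difference from the other groups follows from the choice. Their limma p-values, given below, set a difference against the spread among arrays and are no evidence for its direction.

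Total RNA was measured in 3 groups of 3 samples. The adult group held Sox2-GFP+ cells taken from the labial cervical loop at postnatal day 30, the epithelial stem cell niche of the continuously growing incisor. The embryo group held Sox2-GFP+ cells of the incisor epithelium of embryos at E14.5. The third group held mouse embryonic stem cells (mESC), which were purchased. The dental cells came from Sox2-GFP+ mice, in which green fluorescent protein marks cells expressing the transcription factor Sox2, and live GFP+ cells were isolated by flow sorting of the dissected tissue. Each dental sample combined several animals. The labels name the samples biological replicates but give neither the mouse strain nor the mESC line, and whether the mESC replicates are different cultures is not said. A p-value here therefore covers the variation among these particular samples, which could be technical.

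Loci without a symbol on such arrays come from several sources. Some are long non-coding RNAs, which are transcribed and often spliced like messenger RNAs but are not translated. Others are antisense transcripts of known genes, extensions of a messenger RNA past its annotated end, processed pseudogenes (copies of a messenger RNA inserted elsewhere in the genome), or short stretches of repeated sequence whose probes can bind RNA from many places. A signal of a member therefore reports RNA that binds its probes, not a defined gene product.

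The dental and stem cell labels were checked against marker genes. The 9 measured stem cell markers averaged 4.94 to 5.12 per array in adult cells, 4.64 to 4.95 in embryo cells and 12.12 to 12.18 in mESC. All 9 were called lower in embryo cells than in mESC, and 8 in adult cells. Klf4 was not called there, at 10.16 in adult and 11.02 in mESC arrays. Dental epithelium markers averaged 11.77 to 12.88 in adult, 12.26 to 12.80 in embryo and 8.03 to 8.24 in mESC arrays. Of these 10, 7 were called higher than mESC in each dental group. Sox2, the gene of the sort, went the other way, at 9.83 in adult, 11.86 in embryo and 14.16 in mESC arrays. It was called lower in both dental groups than in mESC. Cdh1 was called lower in embryo cells than in mESC, and Epcam was called in neither comparison with mESC. Ameloblast markers, genes of the enamel-forming cells, averaged 12.30 to 14.74 in adult and 5.34 to 5.84 in embryo arrays. Of these 8, 5 were called higher in adult than in embryo cells, while Amtn, Odam and Klk4 were not called. Macrophage and leukocyte markers averaged 9.13 to 9.46 in adult and 4.76 to 5.52 in embryo arrays, and 10 of 10 were called higher in adult cells. Mesenchyme and bone markers averaged 9.17 to 11.30 in adult and 6.23 to 7.76 in embryo arrays, with 5 of 10 called higher, while the 6 erythroid markers lay at or below the median of the negative controls (4.81) in every group. In bulk samples, fewer cells of a type and less RNA per cell cannot be told apart.

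The sequences of 3 promoters are shown because the data bear on them. The RefSeq long non-coding RNA genes Gm32342 and Gm40003 begin within 11 and 24 bases of the start of a member on the same strand, the first lower and the second higher in mESC than in dental cells. The promoter of Isl1, a LIM homeobox gene of the incisor epithelium, is shown because a member runs away from it on the opposite strand. Each sequence covers 250 bases before to 50 bases after the RefSeq start (GRCm38.p6), 5′ to 3′ on the gene's strand. All 3 genes lie on the minus strand, Gm32342 on chromosome 19, Gm40003 on chromosome 2 and Isl1 on chromosome 13. Capitals mark the motifs found. Positions of members are the deposited coordinates, whose build is not named in the sources used here, and distances to RefSeq starts treat it as GRCm38, in which 99.09% of 30191 single-symbol clusters overlapped their own gene.
Gm32342: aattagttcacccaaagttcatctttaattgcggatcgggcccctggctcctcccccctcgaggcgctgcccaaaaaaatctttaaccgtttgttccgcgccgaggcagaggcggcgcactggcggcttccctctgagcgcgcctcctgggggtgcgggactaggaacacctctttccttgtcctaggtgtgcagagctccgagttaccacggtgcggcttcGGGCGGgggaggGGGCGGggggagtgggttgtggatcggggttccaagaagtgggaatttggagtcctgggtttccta
Gm40003: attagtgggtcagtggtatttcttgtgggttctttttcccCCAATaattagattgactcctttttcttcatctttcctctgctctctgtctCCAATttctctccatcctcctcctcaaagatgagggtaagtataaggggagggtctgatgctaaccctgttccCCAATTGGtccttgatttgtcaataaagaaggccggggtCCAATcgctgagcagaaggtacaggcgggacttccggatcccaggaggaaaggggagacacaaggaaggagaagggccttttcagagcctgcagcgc
Isl1: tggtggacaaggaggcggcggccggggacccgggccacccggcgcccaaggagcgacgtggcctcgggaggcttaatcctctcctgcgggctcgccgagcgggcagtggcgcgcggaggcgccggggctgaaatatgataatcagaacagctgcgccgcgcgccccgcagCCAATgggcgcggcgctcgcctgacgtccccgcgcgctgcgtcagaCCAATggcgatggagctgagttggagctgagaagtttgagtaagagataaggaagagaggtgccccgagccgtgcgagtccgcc
The motifs searched on both strands were the motif TATAAA of core promoters, the motif CCAAT bound by NF-Y, the motif GGGCGG bound by Sp1 and the octamer ATTTGCAT bound by POU factors. The promoter of Gm32342 held GGGCGG 2 times, that of Gm40003 held CCAAT 4 times on the given strand and 1 time on the other, an overlapping pair reading CCAATTGG, and that of Isl1 held CCAAT 2 times. Among 32851 RefSeq mouse promoters of this length, 35.7% held GGGCGG, 37.4% CCAAT, 13.6% TATAAA and 1.74% ATTTGCAT. A match is a description of these letters, not a binding site.

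The deposited Group column placed 1474 members under NonCoding, 26 under Coding, 11 under Other and 8 under Complex. The group of highest mean was adult for 537 members, embryo for 602 and mESC for 380. Counting identical profiles once, these became 521, 384 and 348, and without embryo replicate 3 the embryo count was 364, so the place of embryo as the most frequent peak rested on repeated profiles and on that array. The NonCoding members divided in nearly the same way, into 520, 595 and 359. Among the 26 Coding members, the highest mean was in adult for 7, in embryo for 1 and in mESC for 18, and 12 of them lay in RefSeq pseudogenes. The 8 Complex members were long loci of 28307 bp or more that overlapped up to 23 clusters with symbols. A total of 777 members reached the level of 8 in all 3 groups, while 97 did so in adult only, 100 in embryo only and 98 in mESC only.

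The highest group mean had a median of 10.4 over the members and a maximum of 19.33. Just inside lay TC0400000384.mm.1 in adult, TC1400001423.mm.1 in mESC and TC1600001361.mm.1 in adult arrays, each with a mean of 8.0. Just outside lay TC0800000792.mm.1 in mESC, TC1000000429.mm.1 in adult and TC1700002376.mm.1 in adult arrays, each with 7.997.

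By chromosome, 1416 members were autosomal, 68 lay on X, 6 on Y, 4 on the mitochondrial genome and 25 on unplaced scaffolds. The members made up 4.27% to 7.10% of the clusters without a symbol on each autosome. The most members lay on chromosome 10, with 108, of which 39 shared all 9 array values with another member. Its share of 6.84% was not the largest, since chromosome 12 had 7.10%. Counting every copy, the highest mean on chromosome 10 was in adult for 25, in embryo for 33 and in mESC for 50.

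The share of members differed more between span classes than between autosomes. The members ran from 25 bp to 2.23 Mb with a median of 933 bp, against a median of 2298 bp over all clusters without a symbol. Of the 607 clusters of 25 to 50 bp, 349 (57.5%) were members, against 691 of 19757 (3.50%) at 401 to 5000 bp. These shares count every copy, and 279 of the 349 had the same values as another member on every array. The share was 21.8% at 51 to 400 bp, 4.05% at 5001 to 100000 bp and 27.9% above 100000 bp. In the shortest class the highest mean was in adult for 30 members, in embryo for 242 and in mESC for 77. Counting each set of clusters with identical values once, these became 22, 37 and 46 of 105 distinct profiles.

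**Figure D1:**
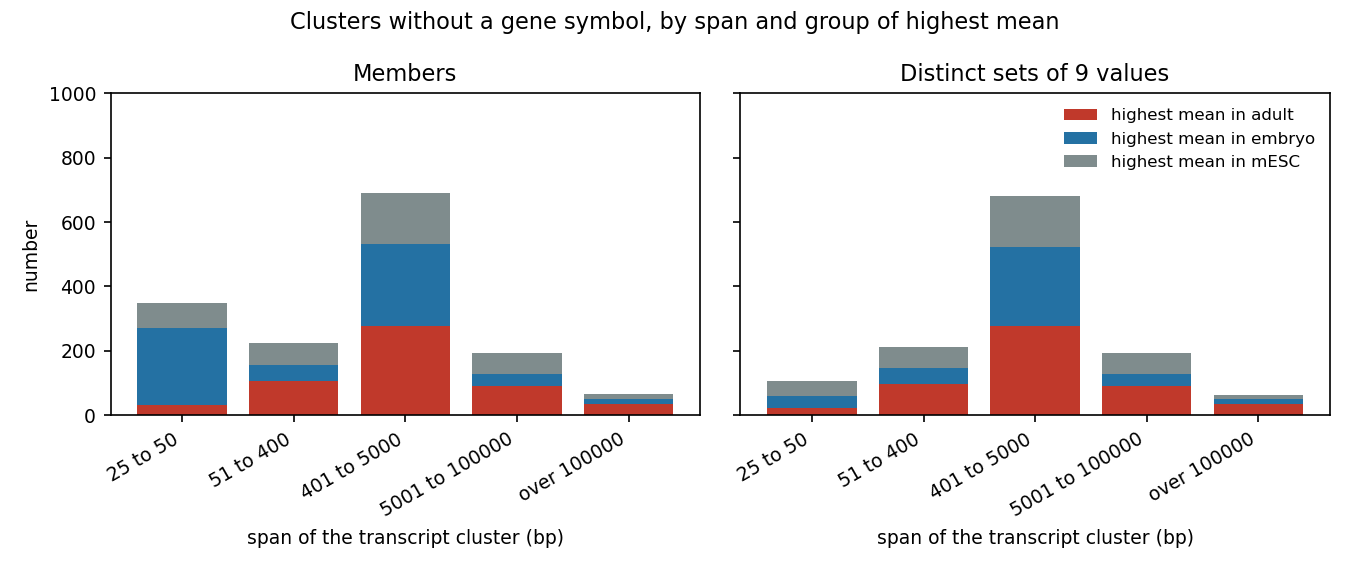
The stacked bars count clusters without a gene symbol at the level of 8 by span in bp, on the left as members and on the right with each set of identical values counted once, coloured by the group of highest mean (adult, embryo, mESC). The bar of 25 to 50 bp falls from 349 members to 105 distinct profiles, and its embryo part from 242 to 37.

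Many short members were copies of one another on the array. A total of 310 members fell into 44 sets whose 9 array values were identical to the last deposited digit, so the 1519 members held 1253 distinct profiles. In 7 of these sets there were 10 or more copies, 189 members in all, each 28 to 48 bp long. The 7 sets had the same shape: high in dental cells and near the negative controls or a few log2 units above them in mESC. Members of one set share their probe sequence or its values and are not separate observations.

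The largest set had 63 copies of 48 bp on 18 chromosomes, among them TC0100000118.mm.1. It gave 10.11, 10.34 and 8.62 in adult arrays, 9.91, 9.08 and 12.38 in embryo arrays and 5.43, 5.42 and 4.63 in mESC arrays. All 6 dental arrays lay above all 3 mESC arrays, and the 2 dental groups overlapped. The set with the strongest signal, 18 copies of 28 bp that include TC0100001325.mm.1, gave 14.37, 14.15 and 12.68 in adult, 13.34, 13 and 16.29 in embryo and 6.79, 7.17 and 7.93 in mESC arrays.

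Across the 7 sets, the embryo minus mESC difference was 5.0 to 6.91 (limma adjusted p 0.00121 to 0.00511) and the adult minus mESC difference 4.24 to 6.44 (limma adjusted p 0.00113 to 0.00822). The arrays of the second processing day, described below, include only 1 adult array. On these the adult minus mESC difference of the set of 18 copies was 5.38, and its call was lost. Adult minus embryo was -0.78 to -0.48, which passed no threshold (adjusted p 0.734 to 0.867 in limma). One embryo array set the spread: embryo replicate 3 lay at 12.13 to 16.29 over the 7 sets, against 9.72 to 13.34 in embryo replicate 1 and 8.93 to 13 in embryo replicate 2. The embryo standard deviation was 1.66 to 1.84 (n = 3), against 0.816 to 0.983 in adult cells (n = 3). Without embryo replicate 3 the embryo minus mESC difference was 4.02 to 5.87 (limma adjusted p 0.000887 to 0.00627), and adult minus embryo turned to 0.15 to 0.56, again not called. Over the 9 arrays the 7 sets correlated pairwise at r = 0.965 to 0.998 in 21 pairs, a description of values that share arrays and may share probes.

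A further 41 distinct profiles, covering 65 members, followed the mean of these 7 sets with r of at least 0.95 over the 9 arrays. Of these, 17 were up to 50 bp long and 24 were longer. One was a set of 3 members with identical values on 3 chromosomes, each 26 bp long. Among them, TC0900002885.mm.1 (chr9:96666181-96666206, minus strand) gave 13.81, 14.05 and 12.59 in adult, 13.40, 12.70 and 16.15 in embryo and 5.50, 5.92 and 7.10 in mESC arrays. Its embryo minus mESC difference was 7.91 ± 0.90 (SE, limma adjusted p = 0.000691). Only 5 clusters with a symbol were at most 50 bp long and reached the level, of which 0 were called higher in embryo and 1 higher in adult cells than in mESC. Not all short sets followed this shape: 9 copies of 28 bp averaged 7.45 in adult, 8.31 in embryo and 9.55 in mESC arrays, and their adult minus mESC difference of -2.11 ± 0.60 was called (SE, limma adjusted p = 0.0375).

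**Figure D2:**
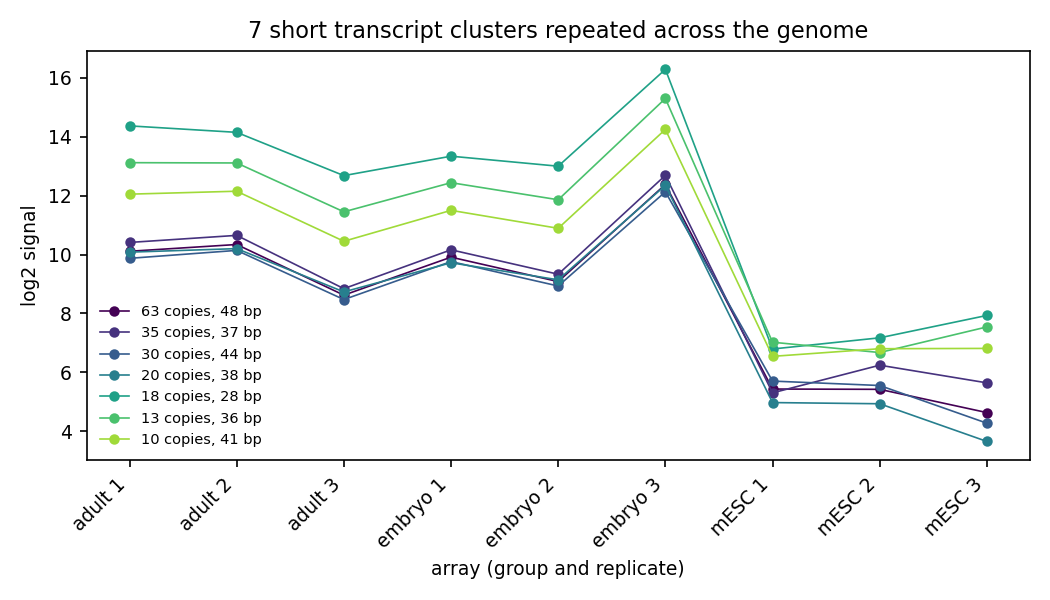
Each line is 1 of the 7 sets of 10 or more identical short members, with its log2 signal on the vertical axis and the 3 adult, 3 embryo and 3 mESC arrays on the horizontal axis. All dental points lie above the mESC points of the same set, and embryo replicate 3 is the highest array of every set, at 12.13 to 16.29.

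Adult was first set against embryo, the comparison of the mature niche with the forming incisor. A cluster was called where limma's p-value, adjusted by Benjamini-Hochberg over all 65956 clusters, was under 0.05 and the absolute log2 difference at least 1. Of the members, 70 were called higher (4.61%) and 82 lower (5.40%) in adult cells, 152 in all. Over all clusters tested 1.95% were higher and 2.38% lower, 4.32% together, and among clusters with a symbol at the same level 17.6% were called. After quantile normalisation of the deposited signals, 85 members were higher and 65 lower, so the balance between the directions depends on the scaling. The median difference was -0.10 over members and 0.00 over all clusters. Since a member could enter through a high adult or embryo level, a count free of that choice is the one over the 940 members at 8 or more in mESC: 20 were higher and 50 lower (7.45%), against 15.2% of the clusters with a symbol chosen in the same way, and 32 and 38 after quantile normalisation.

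Of the array columns, 2 adult and 1 embryo carried one digit string, read as a processing day, and the other 6 a second. In those column names 2 embryo arrays carry one sample name under different strings, so the names do not show whether they are separate samples. The fit within the first day had 1 embryo array and 1 residual degree of freedom. It called no cluster of any kind, so the loss of every call there says nothing about the members in particular. Within the second day 34 were higher and 31 lower, and with day as a block 70 and 67. Of the 32 adult minus embryo calls on single members followed through every setting, 32 were lost within the first day, 10 within the second day and 3 with day as a block. The 10 lost within the second day were those near or in Bmp3, Col1a2, Sparc, Galnt5, Efnb2, Rrm2, Sema3a and Emb, the sense member at Cd24a and TC0400000408.mm.1. With the 2 embryo columns of one name averaged, 2 of these 32 calls were lost, among them that near Sema3a. Without embryo replicate 2, the counts over all members were 55 and 55, and over members at 8 or more in mESC 15 and 33. Adult replicate 1 was the highest of the adult arrays in 45 of the 70 members called higher, replicate 2 in 20 and replicate 3 in 5. Without adult replicate 1 the counts were 75 and 74.

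The largest adult excess belonged to 5 members with identical values on chromosome 4 and its unplaced pieces. One of them, TC0400002487.mm.1 (chr4:42027597-42027861, minus strand), gave 14.89, 12.74 and 11.02 in adult, 5.41, 7.05 and 6.20 in embryo and 7.15, 7.15 and 5.94 in mESC arrays. Its adult minus embryo difference was 6.66 ± 0.92 (SE, limma adjusted p = 0.00374), and the lowest adult array stood well above every other array. The Coding member TC0400000385.mm.1 (chr4:41886578-41887367, plus strand) had the same order of adult arrays, with 13.34, 11.36 and 9.71 in adult, 6.18, 5.88 and 6.15 in embryo and 6.31, 6.36 and 5.72 in mESC arrays (adult minus embryo 5.40 ± 0.77 SE, limma adjusted p = 0.00436). Between 41 and 43 Mb of this chromosome lay 7 members, whose group means had a median of 11.47 in adult, 6.22 in embryo and 6.75 in mESC arrays. A further 7 lay on its unplaced pieces, with medians of 12.64, 6.22 and 6.45 in adult, embryo and mESC arrays. On the unplaced pieces no embryo mean exceeded 6.23 and no mESC mean 6.75, so these 7 reached the level of 8 through adult cells alone and their adult excess follows from the choice. The 14 loci held repeated profiles and are not independent.

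Several adult-high members lay past the 3′ end of a gene. TC0500000954.mm.1 (chr5:98881663-98884044, plus strand) begins 703 bp past Bmp3, which encodes a secreted ligand of the bone morphogenetic protein family. It gave 12.97, 9.40 and 9.30 in adult, 6.64, 3.82 and 3.58 in embryo and 3.50, 3.35 and 3.34 in mESC arrays. The adult and embryo arrays did not overlap, and adult minus embryo was 5.88 ± 1.12 (SE, limma adjusted p = 0.0157), a call that was lost without embryo replicate 2, without embryo replicate 3 or with only the 2 groups fitted. Bmp3 itself differed by 1.96 ± 0.59 (SE, limma adjusted p = 0.0947), which was not called. TC0500001534.mm.1 (chr5:130844507-130844887, plus strand), 3862 bp past Caln1, a gene for a calcium-binding protein, gave 12.02, 9.09 and 6.76 in adult, 3.02, 3.29 and 3.24 in embryo and 3.35, 3.52 and 3.07 in mESC arrays. Its adult arrays spread over several log2 units but all exceeded the other 6, and adult minus embryo was 6.11 ± 1.10 (SE, limma adjusted p = 0.0123). This call too was lost with only the 2 groups fitted (limma adjusted p = 0.0686). For adult minus mESC the member gave 5.98, beside 0.43 for Caln1.

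A Notch-modifying gene had a neighbour of this kind with a tighter spread. Gxylt2 encodes a xylosyltransferase that extends O-glucose on Notch. TC0600001157.mm.1 (chr6:100807451-100810911, plus strand), 2370 bp past it, gave 11.83, 11.70 and 11.10 in adult, 8.48, 8.33 and 8.33 in embryo and 4.24, 4.22 and 4.57 in mESC arrays. The 3 groups were fully separated. Adult minus embryo was 3.16 ± 0.19 (SE, limma adjusted p = 0.000113) and embryo minus mESC 4.04 ± 0.19 (SE, limma adjusted p = 7.61e-06). Gxylt2 differed in the same directions, by 1.31 ± 0.19 and 1.27 ± 0.19 (SE; limma adjusted p = 0.00458 and 0.00277).

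Other adult-high members lay at loci of blood and matrix genes. TC1100002503.mm.1 (chr11:34543358-34684875, minus strand) overlaps Dock2, a Rac activator of blood cells, on the same strand. It gave 10.24, 10.68 and 10.20 in adult, 4.60, 5.08 and 4.92 in embryo and 5.80, 6.10 and 6.31 in mESC arrays, with an adult minus embryo difference of 5.51 ± 0.19 (SE, limma adjusted p = 9.57e-06). For adult minus mESC the member gave 4.30, beside 1.30 for Dock2. TC0300002283.mm.1 (chr3:87249309-87250205, minus strand), chosen after its values were seen, begins 553 bp past Fcrls, a macrophage gene, and gave 8.14, 8.04 and 8.05 in adult, 4.03, 3.8 and 4.12 in embryo and 4.16, 3.90 and 3.93 in mESC arrays. The macrophage markers moved the same way (9.13 to 9.46 in adult and 4.76 to 5.52 in embryo arrays), and their part in these differences was not tested.

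On the strand opposite Col1a2, which encodes a chain of type I collagen, TC0600001799.mm.1 (chr6:4540517-4548023, minus strand) gave 11.77, 10.36 and 9.45 in adult, 7.5, 7.36 and 7.27 in embryo and 6.90, 8.03 and 8.40 in mESC arrays. Adult minus embryo was 3.15 ± 0.59 (SE, limma adjusted p = 0.0143), and the call was lost without embryo replicate 2 or without embryo replicate 3. On the strand opposite Sparc, which encodes the matrix glycoprotein osteonectin, TC1100000646.mm.1 (chr11:55394499-55395463, plus strand) gave 11.63, 10.85 and 9.84 in adult, 8.11, 8.34 and 7.82 in embryo and 8.53, 8.74 and 9.23 in mESC arrays (adult minus embryo 2.68 ± 0.42 SE, limma adjusted p = 0.00641). In both, adult replicate 1 was highest and adult replicate 3 lowest. Mesenchyme and bone markers moved the same way, at 9.17 to 11.30 in adult and 6.23 to 7.76 in embryo arrays, and their part was not tested.

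Among the members lower in adult than in embryo cells, several overlapped developmental and imprinted genes. TC0200002412.mm.1 (chr2:157560581-157560997, plus strand) overlaps Nnat, an imprinted gene for a small membrane proteolipid, on its own strand. It gave 5.87, 6.54 and 6.94 in adult, 9.38, 9.95 and 9.85 in embryo and 6.52, 6.0 and 6.69 in mESC arrays. The embryo arrays stood apart from the other 6, with an adult minus embryo difference of -3.28 ± 0.30 (SE, limma adjusted p = 0.000648), beside -2.58 ± 0.17 for Nnat (SE, limma adjusted p = 0.000159). TC0700002081.mm.1 (chr7:142575532-142578146, plus strand), opposite the imprinted non-coding RNA gene H19, gave 7.92, 7.48 and 6.88 in adult, 10.09, 10.89 and 9.46 in embryo and 5.64, 5.84 and 6.26 in mESC arrays. It was lower in adult than in embryo cells by -2.72 ± 0.39 (SE, limma adjusted p = 0.00457).

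At 2 further imprinted loci the groups divided differently. TC1200001140.mm.1 (chr12:109595805-109598539, plus strand), opposite Rtl1 in a cluster of imprinted RNAs, gave 6.08, 5.96 and 6.02 in adult, 9.13, 9.78 and 8.49 in embryo and 8.74, 8.42 and 8.84 in mESC arrays. Here adult was the low group, by -3.11 ± 0.29 against embryo (SE, limma adjusted p = 0.000658) and by -2.65 ± 0.29 against mESC (SE, limma adjusted p = 0.000343). TC1000001765.mm.1 (chr10:13130104-13131694, minus strand), opposite Plagl1, an imprinted zinc-finger gene, gave 13.14, 11.42 and 11.26 in adult, 12.10, 10.26 and 10.99 in embryo and 8.14, 7.46 and 7.23 in mESC arrays. Its dental groups overlapped and both stood above mESC.

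Members within genes of patterning and glycosylation were also lower in adult cells. TC1500000778.mm.1 (chr15:83782053-83783366, plus strand) lies in Mpped1 and gave 7.08, 6.69 and 7.87 in adult, 10.33, 11.33 and 11.21 in embryo and 4.94, 4.52 and 4.84 in mESC arrays, a difference of -3.74 ± 0.35 between adult and embryo cells (SE, limma adjusted p = 0.00072). TC0200000873.mm.1 (chr2:58040083-58041026, plus strand) lies in Galnt5, which starts O-glycosylation of mucin-type proteins, and gave 5.20, 4.33 and 4.71 in adult, 7.69, 8.53 and 9.69 in embryo and 4.24, 4.70 and 4.27 in mESC arrays. TC0800001656.mm.1 (chr8:8637966-8639205, minus strand) lies in Efnb2, a membrane-bound ligand of Eph receptors, and gave 6.62, 6.79 and 7.27 in adult, 8.77, 9.67 and 10.09 in embryo and 5.05, 4.70 and 4.71 in mESC arrays. In all 3 the groups of adult and embryo arrays did not overlap, and each host gene was called in the same direction.

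Dental cells were then set against mESC. The 2 comparisons share the mESC arrays. All 3 mESC arrays fell on the second day, with 2 embryo arrays and 1 adult array. Day and group are thus partly mixed in both comparisons, most in adult minus mESC. For embryo minus mESC, 542 members were called higher and 138 lower, 680 in all or 44.8%, where over all clusters 4.68% were higher and 4.11% lower, 8.79% together. For adult minus mESC, 595 were higher and 195 lower, 790 in all or 52.0%, where over all clusters 6.07% were higher and 6.77% lower, 12.8% together. Clusters with a symbol at the same level were called in 28.8% and 46.4%. The repeated short sets weighed on these counts: over distinct profiles, 335 were higher and 125 lower for embryo minus mESC (36.7%), and 382 and 177 for adult minus mESC (44.6%). All 189 members of the 7 large sets counted as higher in both.

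Over the 1276 members at 8 or more in adult cells, the group outside that contrast, embryo minus mESC gave 482 higher and 63 lower (42.7%). Over 1026 distinct profiles it gave 275 and 57 (32.4%). Clusters with a symbol chosen in the same way gave 1233 and 877 (25.1%). Over the 1304 members at 8 or more in embryo cells, adult minus mESC gave 528 higher and 118 lower (49.5%). Over 1052 distinct profiles it gave 320 and 107 (40.6%). That is near the share of such clusters with a symbol, which gave 1367 higher and 2274 lower (41.9%). Within the second day, embryo minus mESC gave 529 and 138 of all members, and adult minus mESC 286 and 142. A total of 636 members were called in none of the comparisons, and the 3 comparisons share arrays, so their calls are not separate evidence.

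The largest dental excess outside the short sets lay past Cdh6, which encodes a classical cadherin of cell adhesion. TC1500001237.mm.1 (chr15:13029647-13033814, minus strand), 386 bp past its 3′ end, gave 10.35, 12.14 and 12.26 in adult, 13, 13.33 and 13.73 in embryo and 4.01, 4.23 and 4.09 in mESC arrays. The mESC arrays lay below the negative-control median and the embryo arrays above all adult arrays. Embryo minus mESC was 9.24 ± 0.47 (SE, limma adjusted p = 1.18e-05), beside 7.43 ± 0.46 for Cdh6 (SE, limma adjusted p = 3.08e-05), and adult minus embryo was -1.77 ± 0.47 (SE, limma adjusted p = 0.0614), which was not called.

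TC0500000089.mm.1 (chr5:13604035-13606233, plus strand), 550 bp past Sema3a, a secreted axon guidance factor, followed the same pattern. It gave 6.79, 8.70 and 9.57 in adult, 10.77, 10.88 and 11.16 in embryo and 3.58, 4.33 and 3.8 in mESC arrays, and embryo minus mESC was 7.03 ± 0.62 (SE, limma adjusted p = 0.000192), beside 6.32 ± 0.29 for Sema3a (SE, limma adjusted p = 6.43e-06). Its adult minus embryo difference of -2.58 ± 0.62 passed narrowly (SE, limma adjusted p = 0.0404). The call was lost when any of 7 arrays was left out, after quantile normalisation or with day as a block. It was also lost with only the 2 groups fitted or with the 2 embryo columns of one name averaged (limma adjusted p = 0.0965 for the last).

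Cd24a, which encodes a small surface glycoprotein, had a member on each strand. The antisense TC1000002087.mm.1 (chr10:43577473-43584264, minus strand), chosen after its values were seen, gave 11.69, 11.27 and 11.51 in adult, 11.10, 11.31 and 10.40 in embryo and 5.22, 6.38 and 5.73 in mESC arrays. The sense TC1000000403.mm.1 (chr10:43580002-43581663, plus strand) gave 7.33, 7.72 and 8.52 in adult, 9.80, 9.66 and 10.74 in embryo and 4.61, 4.64 and 4.92 in mESC arrays. Both were higher in dental cells. Only the sense member was called between the dental groups (-2.21 ± 0.36 SE, limma adjusted p = 0.00786), while the antisense member gave 0.55 ± 0.33 and Cd24a 0.11 ± 0.06 (SE; limma adjusted p = 0.438 and 0.429), and no test compared these differences with each other.

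At Isl1, TC1300001322.mm.1 (chr13:116309843-116312782, plus strand) starts 155 bp upstream of the gene's start on the opposite strand, within the promoter printed above. It gave 6.96, 7.60 and 7.99 in adult, 7.51, 8.35 and 9.32 in embryo and 4.50, 4.11 and 4.31 in mESC arrays. The dental groups overlapped and both lay above mESC, with an embryo minus mESC difference of 4.09 ± 0.44 (SE, limma adjusted p = 0.000563), beside 8.0 ± 0.28 for Isl1 (SE, limma adjusted p = 1.60e-06).

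Gm32342, whose promoter is shown above, was followed by TC1900001459.mm.1 (chr19:37677968-37697557, minus strand), chosen after its values were seen. The member gave 8.0, 9.86 and 9.65 in adult, 7.29, 7.62 and 8.12 in embryo and 4.77, 4.94 and 4.77 in mESC arrays. It was higher than mESC in adult cells by 4.34 ± 0.46 and in embryo cells by 2.85 ± 0.46 (SE; limma adjusted p = 0.000304 and 0.0039), and adult minus embryo was 1.49 ± 0.46 (SE, limma adjusted p = 0.103). It overlaps Cyp26c1, a retinoic acid-degrading enzyme, on the opposite strand. Cyp26c1 was lower in adult than in embryo cells by -3.56 ± 0.40 (SE, limma adjusted p = 0.00153), so the gene was called between the dental groups and the member was not. In all, 7 RefSeq long non-coding RNA genes started within 100 bases of a member on its strand. Among the others, the member at Gm34746 was higher in adult cells than in mESC. The member at Gm40003, TC0200005258.mm.1 (chr2:170670959-170673862, minus strand), gave 8.55, 8.37 and 8.55 in adult, 8.55, 8.13 and 8.02 in embryo and 11.04, 10.94 and 10.60 in mESC arrays. It was lower in both dental groups, with an embryo minus mESC difference of -2.63 ± 0.16 (SE, limma adjusted p = 3.22e-05), and was also chosen after its values were seen. The other 4 were called in no comparison.

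**Figure D3:**
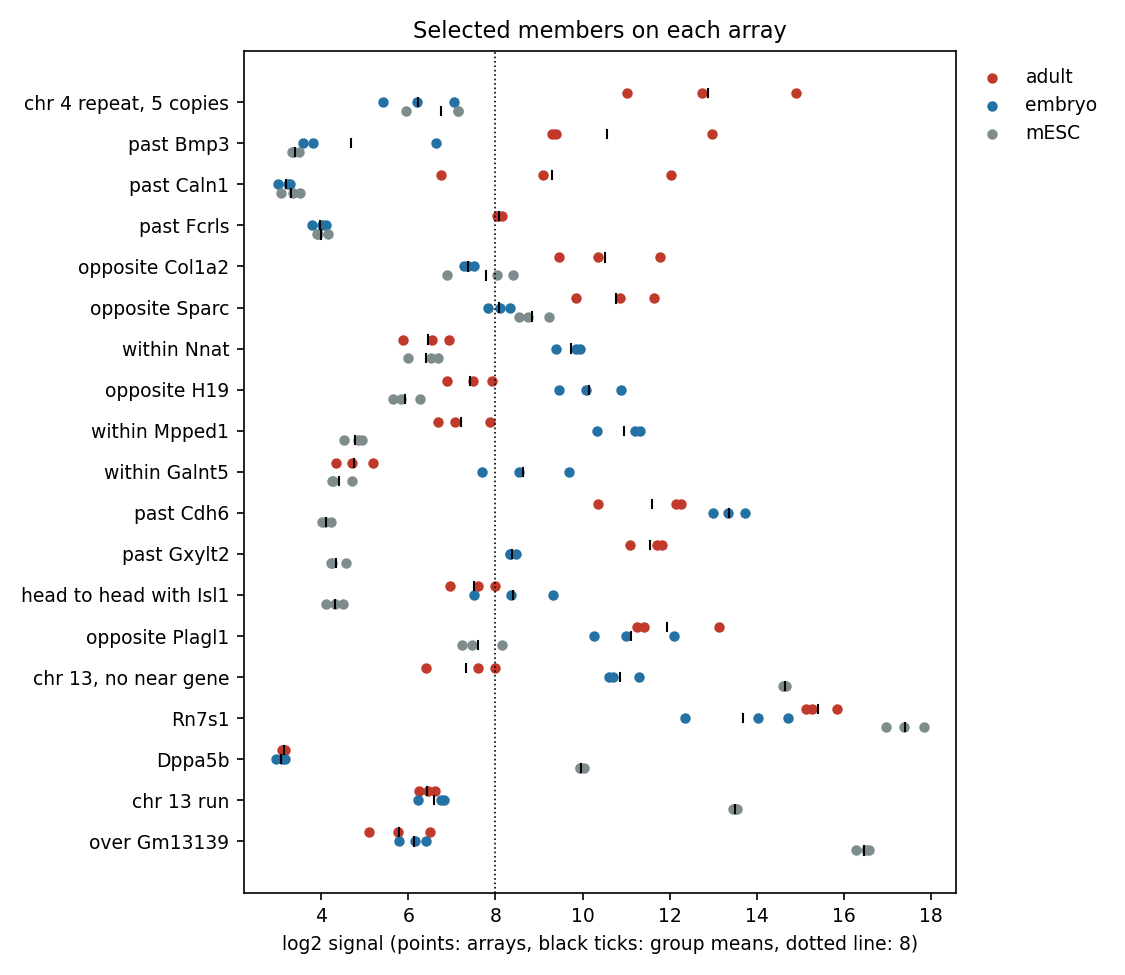
Points are the 3 arrays of each group (adult, embryo, mESC) for 19 members described in the text, named by their position, on a log2 signal axis, with black ticks at group means and a dotted line at the level of 8. Adult points lie farthest right in the upper rows, embryo points at Nnat, H19, Mpped1, Galnt5 and Cdh6, and mESC points in the bottom rows.

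Among members higher in mESC, the largest difference belonged to TC0400001906.mm.1 (chr4:147392487-147393162, plus strand), which overlaps predicted zinc-finger loci. It gave 5.09, 5.76 and 6.49 in adult, 5.79, 6.41 and 6.16 in embryo and 16.51, 16.58 and 16.27 in mESC arrays. The dental groups overlapped each other, and embryo minus mESC was -10.33 ± 0.33 and adult minus mESC -10.67 ± 0.33 (SE; limma adjusted p = 9.44e-07 and 6.46e-07). Zfp991, which it overlaps on the same strand, differed by -1.0 ± 0.28 and -1.18 ± 0.28 in the same comparisons (SE; limma adjusted p = 0.0437 and 0.0172).

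Between 65 and 67 Mb of chromosome 13 lay 10 members, whose group means had a median of 5.50 in adult, 5.58 in embryo and 10.21 in mESC arrays. The 2 described here reached the level of 8 in mESC alone, so the direction of their difference follows from the choice. TC1300002220.mm.1 (chr13:65806740-65817643, minus strand) gave 6.46, 6.25 and 6.61 in adult, 6.83, 6.75 and 6.22 in embryo and 13.54, 13.50 and 13.45 in mESC arrays. TC1300000808.mm.1 (chr13:66488211-66498570, plus strand) gave 4.03, 3.79 and 4.49 in adult, 4.19, 4.17 and 4.11 in embryo and 10.51, 10.25 and 10.90 in mESC arrays. The arrays of each group lay within 1 log2 unit of one another in both members, and no dental array came near an mESC array. Embryo minus mESC was -6.90 ± 0.16 for the first and -6.40 ± 0.21 for the second (SE; limma adjusted p = 2.05e-07 and 1.01e-06).

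Pseudogenes of stem cell genes were among the mESC-high members. TC0900002715.mm.1 (chr9:78245496-78245859, minus strand) lies in Dppa5b, a RefSeq pseudogene of the pluripotency marker Dppa5a, and shares every value with the member in Dppa5c. It gave 3.10, 3.18 and 3.15 in adult, 3.16, 3.10 and 2.97 in embryo and 9.94, 10.03 and 9.94 in mESC arrays. Its embryo minus mESC difference was -6.89 ± 0.07 (SE, limma adjusted p = 3.04e-09), beside -13.20 ± 0.28 for Dppa5a (SE, limma adjusted p = 1.20e-07). TC1500000923.mm.1 (chr15:93678612-93679411, plus strand), chosen after its values were seen, lies in Zfp42-ps1, a copy of the pluripotency gene Zfp42 (Rex1), and gave 3.46, 3.45 and 3.23 in adult, 3.48, 3.09 and 3.34 in embryo and 8.32, 7.81 and 8.73 in mESC arrays. It was -4.98 ± 0.22 in embryo minus mESC, beside -4.01 ± 0.17 for Zfp42 (SE; limma adjusted p = 5.34e-06 and 4.26e-06). Probes of such copies can bind RNA of the parent gene, and the 2 sources cannot be told apart here.

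In all, 104 members had 50% or more of their span in a RefSeq pseudogene. The highest mean was in adult for 16, in embryo for 22 and in mESC for 66. For adult minus mESC 17 of them were called higher and 44 lower, where over all clusters 6.07% were higher and 6.77% lower. For embryo minus mESC the counts were 10 and 26 (4.68% and 4.11% over all clusters), and for adult minus embryo 4 and 8 (1.95% and 2.38%). The levels of these members chose them, so nothing is read from the counts. For some the name of the pseudogene gives a parent with a cluster of its own. Rab11b-ps2, from the recycling endosome gene Rab11b, (TC1900001043.mm.1) gave an adult minus mESC difference of 2.15 ± 0.12 (SE, limma adjusted p = 1.38e-05), beside 1.68 ± 0.12 for Rab11b (SE, limma adjusted p = 4.42e-05). Akt2-ps (TC1100000159.mm.1) gave 1.66 ± 0.16 (SE, limma adjusted p = 0.00021) in the same comparison, beside 1.07 ± 0.16 for the kinase gene Akt2 (SE, limma adjusted p = 0.00168). The ribosomal copies Rpl19-ps10 (TC0700001677.mm.1) and Rpl19-ps6 (TC1500000052.mm.1) gave -0.77 ± 0.19 and -0.55 ± 0.13, beside -0.60 ± 0.06 for Rpl19 (SE, limma adjusted p = 0.000241), all under the minimum difference of a call. These pairs were chosen after their values were seen.

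A pair of single members at Mybl2 and Foxh1 is given next. TC0200005086.mm.1 (chr2:163054616-163062531, minus strand), opposite Mybl2, a cell cycle transcription factor, gave 3.79, 4.21 and 3.35 in adult, 3.50, 3.69 and 4.44 in embryo and 7.78, 8.09 and 9.09 in mESC arrays (embryo minus mESC -4.44 ± 0.40 SE, limma adjusted p = 0.000206). TC1500001786.mm.1 (chr15:76667753-76670430, minus strand), in Foxh1, a cofactor of Nodal signalling, gave 5.56, 5.65 and 5.89 in adult, 6.06, 5.52 and 5.46 in embryo and 8.86, 8.97 and 9.03 in mESC arrays. The 2 dental groups overlapped in both members and lay below every mESC array. The Foxh1 member was chosen after its values were seen.

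TC1200001538.mm.1 (chr12:24713634-24718484, minus strand), opposite Rrm2, a subunit of ribonucleotide reductase, was graded. It gave 4.55, 5.36 and 4.73 in adult, 7.11, 6.81 and 6.13 in embryo and 8.37, 8.27 and 8.75 in mESC arrays. No groups overlapped, and adult minus embryo was -1.80 ± 0.30 and embryo minus mESC -1.78 ± 0.30 (SE; limma adjusted p = 0.00811 and 0.00447). Rrm2 was lower by -2.24 ± 0.22 and -1.30 ± 0.22 in the same steps (SE; limma adjusted p = 0.000838 and 0.00474). At Ccnd2, which encodes cyclin D2, the antisense TC0600001478.mm.1 was higher in dental cells instead, by 1.80 ± 0.18 in adult minus mESC and 2.12 ± 0.18 in embryo minus mESC (SE; limma adjusted p = 0.00025 and 0.00018).

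Next come 3 strongly graded members, and the first lay far from any named cluster. TC1300001294.mm.1 (chr13:113718594-113720885, plus strand), over 10 kb from one, gave 6.41, 8.0 and 7.59 in adult, 10.70, 11.29 and 10.61 in embryo and 14.68, 14.63 and 14.61 in mESC arrays. TC1700000557.mm.1 (chr17:32369612-32371532, plus strand), within the predicted locus Gm26858, gave 6.30, 7.92 and 7.31 in adult, 10.70, 10.97 and 10.36 in embryo and 14.78, 14.77 and 14.61 in mESC arrays. The 2 loci lie on different chromosomes and followed each other closely on every array. TC1200000556.mm.1 (chr12:68558266-68561103, plus strand) was close to them, with 7.02, 8.55 and 8.28 in adult, 11.52, 11.81 and 11.35 in embryo and 14.77, 14.80 and 14.54 in mESC arrays. Adult minus embryo lay between -3.61 and -3.50 for the 3 members and embryo minus mESC between -4.04 and -3.14. In all 3 the groups were fully separated, and mESC arrays had the smallest spread.

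A comparable pair ran the other way. TC1300001351.mm.1 (chr13:119661842-119662639, plus strand) gave 12.12, 11.12 and 11.40 in adult, 9.21, 8.55 and 8.82 in embryo and 5.37, 5.25 and 5.70 in mESC arrays. TC0100002872.mm.1 (chr1:100231108-100231904, minus strand), of nearly the same length, gave 11.97, 11.06 and 11.24 in adult, 9.04, 8.38 and 8.63 in embryo and 5.19, 4.98 and 5.53 in mESC arrays. No groups overlapped in either, and adult minus embryo was 2.69 ± 0.28 and 2.74 ± 0.27 (SE; limma adjusted p = 0.00103 and 0.000888).

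The 7SL RNA, the scaffold of the signal recognition particle that guides secreted proteins to the endoplasmic reticulum, was represented by 2 members chosen after their values were seen. TC1200000561.mm.1 (Rn7s1) gave 15.13, 15.26 and 15.85 in adult, 14.02, 14.71 and 12.35 in embryo and 16.97, 17.83 and 17.38 in mESC arrays. TC1200001864.mm.1 (Rn7s2) averaged 15.36 ± 0.39 in adult, 13.41 ± 1.29 in embryo and 17.26 ± 0.46 in mESC arrays (SD, n = 3 each). The 3 groups did not overlap in either, and embryo replicate 3 was the lowest array of all. Embryo minus mESC was -3.70 ± 0.56 and -3.85 ± 0.59 (SE; limma adjusted p = 0.00286 and 0.00314). Adult minus mESC was -1.98 ± 0.56 for Rn7s1, a call lost when any of 7 arrays was left out, after quantile normalisation and with either replicate number or day as a block, and -1.90 ± 0.59 for Rn7s2, which was not called (SE; limma adjusted p = 0.0357 and 0.0525).

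The strongest signals lay at the top of the scale. The highest value of any cluster on any array was 19.5, and 7 members reached 19 on at least 1 array. Near that ceiling differences can be understated, probe saturation was not tested, and like values do not show like levels. TC0200000731.mm.1, a 117 bp locus on chromosome 2, gave 19.33, 19.32 and 19.34 in adult, 19.34, 19.33 and 19.27 in embryo and 19.14, 19.22 and 19.46 in mESC arrays. TC1800000952.mm.1, a 133 bp locus, gave 16.78, 16.87 and 17.14 in adult, 19.11, 19.14 and 19.04 in embryo and 19.12, 19.12 and 19.20 in mESC arrays. All adult arrays of that locus lay below the other 6, and adult minus embryo was -2.17 ± 0.10 (SE, limma adjusted p = 2.74e-05). On the mitochondrial genome, TC0M00000030.mm.1 gave 13.30, 14.26 and 14.03 in adult, 15.15, 14.76 and 14.45 in embryo and 16.27, 16.12 and 16.61 in mESC arrays and was called lower than mESC in both dental groups. The mitochondrial TC0M00000019.mm.1, at 15.64 to 16.66 over the 9 arrays, was called in no comparison.

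The position of members against clusters with symbols was read from the deposited coordinates. A total of 486 members lay over 10 kb from any such cluster, 387 overlapped one on the same strand, 292 overlapped one on the opposite strand, and 354 lay within 10 kb of one. Counting each profile once and setting a member's difference beside that of its single-symbol neighbour gave correlations across loci, which share arrays and are given as a description. A set of identical values was placed by its first copy, so its position and neighbour do not hold for the other copies. Such sets were kept in these correlations and in the counts of calls that follow. For the 147 profiles past the 3′ end of a gene on its strand, Pearson's r was 0.74 for adult minus embryo, 0.76 for embryo minus mESC and 0.75 for adult minus mESC. For the 68 of these within 1 kb it was 0.83, 0.88 and 0.84, and for the 79 farther away 0.67, 0.57 and 0.65. Overlap on the same strand gave 0.42, 0.58 and 0.50 (n = 334) and overlap on the opposite strand 0.49, 0.48 and 0.54 (n = 223). Members before the 5′ end of a gene on its strand gave 0.06, 0.47 and 0.50 (n = 45), tail to tail 0.20, 0.49 and 0.46 (n = 50) and head to head 0.03, 0.14 and 0.25 (n = 54). Spearman's rho tail to tail was 0.14, -0.05 and 0.09, and 1 profile far from the rest is visible there in the plot of member against neighbour.

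Among called members past a 3′ end, the gene was called in the same direction in 14 of 27 for adult minus embryo, 21 of 57 for embryo minus mESC and 36 of 80 for adult minus mESC, and in the opposite direction in 0, 1 and 0. On same-strand overlap the gene was called in the same direction in 14 of 36, 48 of 134 and 51 of 148. It was called in the opposite direction in 0, 2 and 5. On opposite-strand overlap these were 10 of 30, 24 of 72 and 42 of 98, with 1, 5 and 7 opposite. Before the 5′ end the same direction was called in 0 of 2, 5 of 15 and 5 of 17. Head to head it was 1 of 8, 3 of 15 and 6 of 18, with 0, 1 and 1 opposite. Tail to tail it was 0 of 3, 1 of 18 and 3 of 15, with 0, 2 and 3 opposite. No test compared the positions. Apart from those near Cdh6, Gxylt2, Sema3a and Bmp3, 3 are given that were chosen after their values were seen. TC0500001785.mm.1 (chr5:146472615-146473604, plus strand), 204 bp past the actin regulator Wasf3, gave 10.94, 10.14 and 10.73 in adult, 10.66, 10.25 and 9.89 in embryo and 13.82, 13.84 and 13.42 in mESC arrays. TC1900000375.mm.1 (chr19:23167113-23168119, plus strand), 202 bp past the transcription factor gene Klf9, gave 9.30, 8.79 and 9.44 in adult, 9.46, 8.66 and 8.50 in embryo and 13.03, 12.98 and 13.03 in mESC arrays. In both, dental arrays overlapped each other and lay below all mESC arrays. Embryo minus mESC was -3.43 ± 0.26 beside -3.52 ± 0.20 for Wasf3 and -4.14 ± 0.26 beside -2.41 ± 0.08 for Klf9 (SE; limma adjusted p = 8.85e-05, 2.20e-05, 3.46e-05 and 8.86e-07).

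TC1300001328.mm.1, 150 bp past Emb, which encodes the transmembrane glycoprotein embigin, gave 4.36, 5.61 and 5.77 in adult, 7.08, 7.22 and 8.0 in embryo and 8.89, 8.18 and 7.75 in mESC arrays. The adult arrays lay below all others, while embryo and mESC arrays overlapped. Adult minus embryo was -2.19 ± 0.45 (SE, limma adjusted p = 0.0221), beside -3.63 ± 0.52 for Emb (SE, limma adjusted p = 0.00421). The member's call was lost without embryo replicate 2, without embryo replicate 3, with replicate number as a block (limma adjusted p = 0.0587), with day as a block (limma adjusted p = 0.0509) and with only the 2 groups fitted (limma adjusted p = 0.0637).

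**Figure D4:**
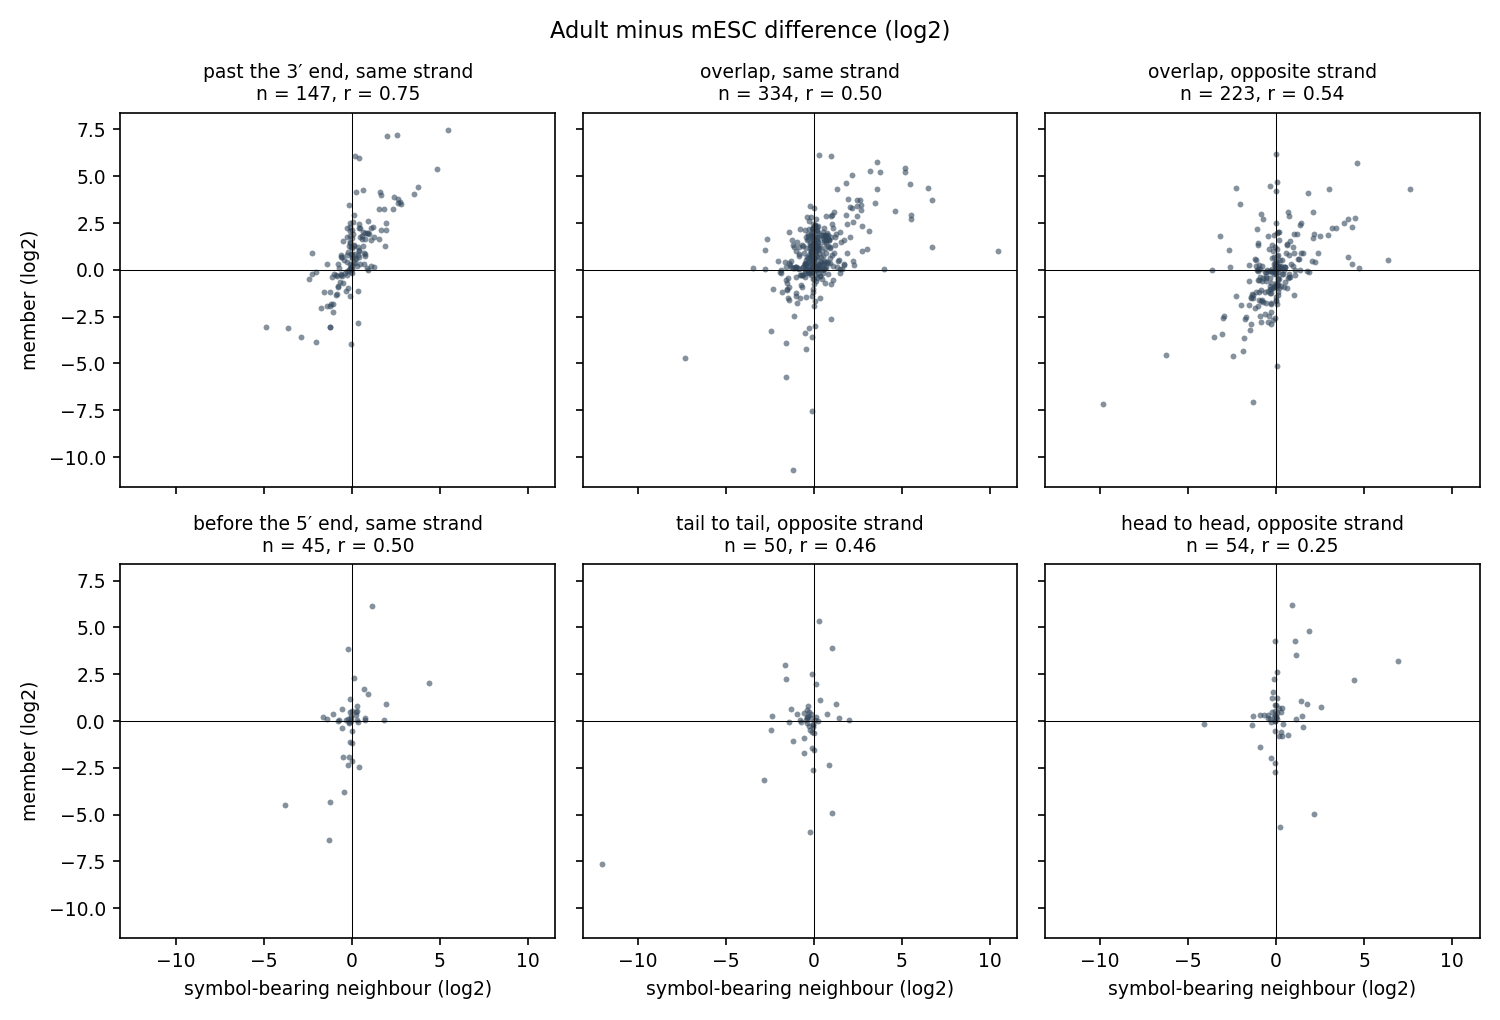
Each point sets the adult minus mESC log2 difference of a member, vertical, against that of its symbol-bearing neighbour, horizontal, for 6 positions of the member. A set of identical values is placed by its first copy. The points lie along a rising line past the 3′ end (n = 147, r = 0.75), r is lowest head to head (n = 54, r = 0.25), and 1 point at the lower left stands apart tail to tail (n = 50, r = 0.46).

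The 247 genes of 8 lists were read for members that overlapped a gene or lay within 10 kb of it, and 28 members did so. Over all clusters, 1.95% were higher and 2.38% lower for adult minus embryo, 4.68% and 4.11% for embryo minus mESC, and 6.07% and 6.77% for adult minus mESC. The counts below are too small to set against these shares and were made on members chosen by level. The imprinted list had 7, of which 3 were lower in adult than in embryo cells and 0 higher. For embryo minus mESC, 4 of the 7 were higher and 0 lower, and for adult minus mESC 3 were higher and 1 lower. The small nucleolar RNA host list had 10 members, of which 1 was higher and 3 lower in embryo than in mESC and 1 higher and 4 lower in adult than in mESC. One of these, TC0900002490.mm.1, opposite the ribosomal protein gene Rpl4, gave 9.07, 9.76 and 9.65 in adult, 9.43, 9.83 and 9.16 in embryo and 12.34, 11.70 and 11.13 in mESC arrays. The dental groups lay below mESC, with an adult minus mESC difference of -2.23 ± 0.33, beside -0.27 ± 0.07 for Rpl4 (SE; limma adjusted p = 0.00173 and 0.0259).

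The collagen and matrix list had 4 members, of which 2 were higher in adult than in embryo cells and 3 higher in adult than in mESC. The cell cycle list also had 4, with 1 lower in adult than in embryo cells, and 1 higher and 1 lower in each comparison with mESC. The tooth and enamel list had 2 members, both higher in both dental groups than in mESC. The pluripotency list had 1, at Mybl2, lower in both. The Hox list and the immune and macrophage list had 1 each, called in no comparison.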

How the data were processed

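Per the labels, each of the 9 total RNA samples went onto 1 Affymetrix whole-transcript array (MTA). For each array the authors deposited 1 log2 signal a cluster, and per the submitters' processing notes Affymetrix Expression Console, RMA and Transcriptome Analysis Console were used, with versions and roles not given. RMA brings the arrays to a common distribution, which hides any shift that most clusters share. Per the file headers, the authors' deposited comparison tables hold bi-weight mean log2 signals, ANOVA and FDR p-values, and signed linear fold changes, treated here as a score. They were used for annotation and as an alternative.

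The members and lists were chosen with earlier results of these data known. Differences were fitted by lmFit and eBayes of limma 3.58.1 (R 4.3.3) over 65956 clusters. The fit had 3 group means over the 9 arrays, which leaves 6 residual degrees of freedom, and p-values were adjusted by Benjamini-Hochberg. ± SE is the moderated standard error. The 6732 control probe sets were left out and no filter on signal was applied. Members named by rule were those with the highest means, the largest differences without overlap of arrays or the greatest height above both other groups, those at listed genes and those at the edge of the level. The others are marked as chosen after their values were seen. From those admitted by rule, the ones described were picked with values known.

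No source used here names the build of the coordinates. Of 30191 single-symbol clusters, 29915 (99.09%) overlapped their own gene in RefSeq GRCm38.p6, which was used for names and promoters. Tables were handled with data.table (1.17.8), Python 3.11.15, pandas 2.3.3 and numpy 2.4.6, and figures drawn with matplotlib 3.10.9. The fit was tested on simulated data. With 3 arrays a group, the number of arrays limits the precision.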

Additional observations from a re-analysis of the deposited data

How the results depend on the processing

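The counts were recomputed under other normalisations, filters, fits and levels, giving 364 alternative values of 16 counts. Of these, 332 stayed within 1.5 times the reported count and 32 did not. With replicate number as a block (replicate block), adult minus embryo gave 62 members higher and 71 lower, embryo minus mESC 522 and 140, and adult minus mESC 576 and 190. Over members chosen on the third group, the block gave 16 and 45, 464 and 63, and 511 and 114. Same-numbered samples correlated at -0.13 to 0.13 in their deviations, so the numbers were not taken as pairs.

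Adult minus embryo fell to 0 and 0 on the first day's arrays, 34 higher and 31 lower on those of the second day and 11 and 16 in the authors' deposited table, and 52 were lower at a level of 9. Over members at 8 or more in mESC it gave 32 higher after quantile normalisation, 13 with only the 2 groups fitted, 36 with no minimum difference, 0 and 0 on the first day's arrays, 7 and 23 on those of the second day, and 2 and 12 in the authors' deposited table. Without embryo replicate 2, 33 of these were lower. Embryo minus mESC gave 285 higher in the authors' deposited table and 335 over distinct profiles. Over members at 8 or more in adult cells it gave 245 and 275 in these settings and 96 lower with no minimum difference. Adult minus mESC gave 286 higher on those of the second day and 382 over distinct profiles. Over members at 8 or more in embryo cells it gave 238 and 78 on those of the second day and 320 higher over distinct profiles. Distinct profiles were added after seeing the data, and on the first day's arrays no cluster of any kind was called. A level of 7 gave 2367 members, with the highest mean in adult for 852 and in embryo for 952. The embryo count was 364 without embryo replicate 3 and 384 over distinct profiles.

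With 1 array left out in turn, adult minus embryo gave 55 to 75 higher and 55 to 79 lower (15 to 25 and 33 to 50 over members at 8 or more in mESC). Embryo minus mESC gave 494 to 560 and 122 to 160 (444 to 494 and 52 to 86), and adult minus mESC 544 to 593 and 164 to 195 (483 to 526 and 95 to 118). The members numbered 1508 to 1552, with the highest mean in adult for 491 to 772, in embryo for 364 to 669 and in mESC for 372 to 414. Of 129 calls on single members, 9 were lost without some 1 array and 0 changed sign. Day as a block ended 3 of 32 for adult minus embryo, 0 of 44 for embryo minus mESC and 4 of 53 for adult minus mESC. On the second day's arrays 10, 0 and 9 were lost, and on the first day's arrays all 32 for adult minus embryo. The replicate block ended 2, 0 and 1, and fits of only 2 groups 5, 0 and 0. Averaging the 2 embryo columns of one name ended 2, 0 and 0. The causes of these shifts were not tested, and the fits within a day also had fewer arrays. That of the first day called no cluster of any kind, so its losses say nothing about the members in particular. Signals near the negative-control median of 4.81 understate differences.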
